A study of Homo sapiens with 6 samples.

Results

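Interferon-stimulated genes and the factors that switch them on were examined through 9 genes, taken by their symbols from the 61806 genes of the deposited table. They are the effector genes IFI6, IFIT1, IFIT2, IFIT5 and ISG15 and the transcription factor genes STAT2, IRF9, IRF1 and IRF3. RNA had been sequenced from 3 libraries of HEK293 cells edited to carry the DNA variant rs16851030, by CRISPR with homology-directed repair (mutant), and from 3 libraries of unedited HEK293 cells (wild type). HEK293 is an established line of human embryonic kidney origin, the medium held fetal serum, and the labels name no interferon treatment. The labels call the libraries biological replicates but do not state whether the edited cells are 1 clone, so p-values measure the spread between these libraries, and the variant and a clone's own history cannot be told apart.

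Type I interferon binds the receptor formed by IFNAR1 and IFNAR2 and activates the kinases JAK1 and TYK2, which phosphorylate STAT proteins, STAT2 among them. STAT2 and IRF9 are subunits of the complex ISGF3, which enters the nucleus and binds the interferon-stimulated response element in promoters of genes such as IFIT1 and ISG15. IRF3 stands upstream, as the factor that viral RNA and DNA sensors activate through TBK1 to induce interferon, and it can also bind such elements directly. IRF1 is itself induced by interferon gamma and then acts on antigen presentation and guanylate-binding protein genes. HEK293 cells are known for very low expression of the DNA sensor cGAS and its adaptor STING.

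Promoters of the effector genes are shown first, because they carry the letters that ISGF3 binds and because their genes differed in direction. RefSeq promoters (GRCh38.p14, 250 bases before to 50 bases after each start) were found for 7 of the 9 genes. The core of the response element, GAAA, then any 2 bases, then GAAA, was searched on both strands and is in capitals. It occurred 3 times in IFI6 (chr1:27672143-27672442, minus strand), 2 times in IFIT1 (chr10:89392373-89392672, plus strand), 3 times in IFIT5 (chr10:89414318-89414617, plus strand) and 2 times, overlapping, in ISG15 (chr1:1013247-1013546, plus strand).
IFI6: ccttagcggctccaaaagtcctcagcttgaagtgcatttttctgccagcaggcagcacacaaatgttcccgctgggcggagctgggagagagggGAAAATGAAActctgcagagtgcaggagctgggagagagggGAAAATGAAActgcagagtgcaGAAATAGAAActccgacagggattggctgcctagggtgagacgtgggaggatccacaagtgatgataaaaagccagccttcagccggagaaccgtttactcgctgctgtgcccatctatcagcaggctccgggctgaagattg
IFIT1: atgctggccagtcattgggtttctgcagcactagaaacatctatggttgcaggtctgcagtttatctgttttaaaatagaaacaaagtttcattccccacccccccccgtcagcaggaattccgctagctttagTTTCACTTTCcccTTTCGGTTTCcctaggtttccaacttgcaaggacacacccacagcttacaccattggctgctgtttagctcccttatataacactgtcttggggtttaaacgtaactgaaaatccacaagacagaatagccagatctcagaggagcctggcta
IFIT5: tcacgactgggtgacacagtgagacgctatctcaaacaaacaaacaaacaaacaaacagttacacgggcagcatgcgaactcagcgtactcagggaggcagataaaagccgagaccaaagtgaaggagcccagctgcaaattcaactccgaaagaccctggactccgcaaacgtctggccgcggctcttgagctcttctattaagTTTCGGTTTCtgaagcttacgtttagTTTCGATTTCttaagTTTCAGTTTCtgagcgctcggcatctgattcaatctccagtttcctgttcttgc
ISG15: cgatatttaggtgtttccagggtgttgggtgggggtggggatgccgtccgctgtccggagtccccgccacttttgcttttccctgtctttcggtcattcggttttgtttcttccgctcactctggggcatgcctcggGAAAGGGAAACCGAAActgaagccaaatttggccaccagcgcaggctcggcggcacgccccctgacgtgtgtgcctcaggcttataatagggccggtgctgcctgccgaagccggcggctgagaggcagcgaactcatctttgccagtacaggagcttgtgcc
At least 1 match was found in 3.57% of all 35116 promoters of this length, at least 2 in 0.259% and at least 3 in 0.037%. The promoters of STAT2, IRF1 and IRF9 held no match in this window. The letters TTCNNNGAA, the core of the gamma-activated site, read the same on both strands and occurred in 7.66% of all promoters. Among these genes they were found in IRF1, at positions -124 to -116 from its start, and in IRF9, at positions -63 to -55, as shown in capitals with their flanks.
IRF1: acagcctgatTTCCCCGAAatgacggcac
IRF9: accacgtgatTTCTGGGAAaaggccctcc
A match describes letters, not a bound site.

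Assigned counts ranged from 16013460 to 20349609 in mutant libraries and from 16867853 to 17938985 in wild-type libraries. Genes with a mean of at least 1 FPKM (counts scaled to exon length and to the library's assigned counts) over the 6 libraries were tested, 12550 in all, with edgeR's quasi-likelihood test and Benjamini-Hochberg adjustment over all of them, and a gene passed at an adjusted p below 0.05. Mitochondrial genes took 1.28 to 1.59% of counts in mutant libraries and 1.91 to 2.33% in wild-type libraries. Of 10 genes listed as typical of HEK293 and renal progenitor cells, 9 reached the minimum, led by VIM and CKS2, and PAX2 was under it. They summed to 303.2 to 319.1 FPKM in mutant libraries and 356.1 to 392.1 FPKM in wild-type libraries. Of the 9, 2 were higher and 5 lower, so that 77.8% passed, beside 58.0% of all tested genes. VIM was among the lower genes (log2 fold change -0.84) and lies on chromosome 10, where 320 of 492 tested genes were lower. Markers of macrophages, dendritic, T, NK and B cells, the usual producers of interferon in blood, summed to 5.37 to 6.68 FPKM over 22 genes in mutant libraries and 3.77 to 4.06 FPKM in wild-type libraries, with NCAM1 and CD8A among the most abundant. The defining genes CD3D, CD3E, MS4A1, CD79B, CLEC9A, CD1C and LILRA4 had no count, and PTPRC had 2 counts over the mutant libraries and 1 over the wild-type libraries. Of 5 fibroblast markers, which summed to 4.99 to 5.47 FPKM in mutant libraries and 3.13 to 3.44 FPKM in wild-type libraries, COL1A1 held most of the sum, while DCN had 0 counts over the mutant and 4 over the wild-type libraries, and LUM 12 over the mutant and 26 over the wild-type libraries. Of 4 endothelial markers, which summed to 0.52 to 0.77 FPKM in mutant and 0.16 to 0.20 FPKM in wild-type libraries, KDR held most of the sum. The part of these levels in the results on interferon genes was not tested.

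Expression of the 9 genes spanned about 2 orders of magnitude, and 6 of them were tested. In mutant cells IFI6 and IRF3 were the most abundant, with libraries that overlapped (15.3 to 20.02 FPKM for IFI6 and 15.8 to 16.5 FPKM for IRF3), followed in order by IFIT5, STAT2, ISG15 and IFIT1, each without overlap with the next. In wild-type cells IRF3 was the most abundant, followed without overlap by IFIT5, IFI6, STAT2, ISG15 and IFIT1. IRF1, IRF9 and IFIT2 stayed under 1 FPKM in all 6 libraries, in that order in the mutant without overlap, while IRF1 and IRF9 overlapped in the wild type. They were read from a fit of all 32852 genes with a count, in which the scaling shifted the expressed genes by a median of -0.04 on the log2 scale. Of the 6 tested genes, 4 were higher in the mutant, 1 was lower and 1 did not pass. Over all tested genes 29.4% were higher, 28.7% were lower and 58.0% passed in either direction, so that most expressed genes differed between these cells. The 6 tested genes had a mean of at least 1 FPKM in each group, so none passed the minimum through 1 group alone.

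**Figure D1:**
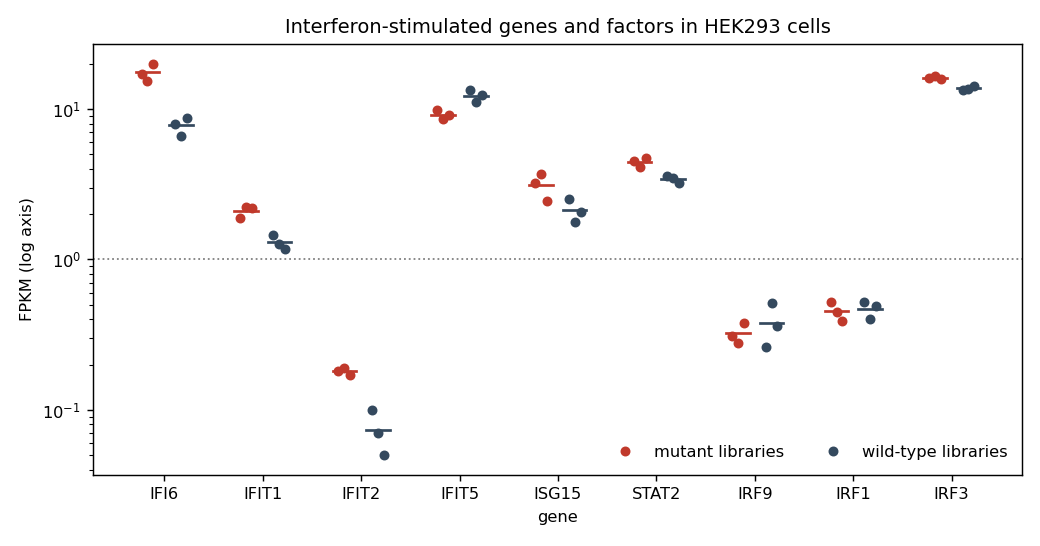
FPKM of the 9 genes in each library on a log axis, mutant libraries left and wild-type libraries right of each gene's tick. Points are libraries, bars are means of 3, and the dotted line is the expression minimum of 1 FPKM. The mutant points of IFI6, IFIT1, IFIT2, STAT2 and IRF3 lie above those of the wild type, and those of IFIT5 lie below.

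IFI6, which encodes a small interferon-induced membrane protein that protects cells from apoptosis and restricts flavivirus replication, had the largest difference among the tested members. Its level was 17.1, 15.3 and 20.02 FPKM in mutant replicates 1 to 3, against 7.98, 6.65 and 8.67 FPKM in wild-type replicates 1 to 3. Every mutant library was above every wild-type library, as was the case, in either direction, for 62.9% of all tested genes. IFI6 was higher by 1.13 on the log2 scale (SE 0.13, 95% interval 0.86 to 1.41), a 2.19-fold difference (edgeR, adjusted p = 7.83e-07). The call was kept under all 17 alternatives, with log2 fold changes of 1.03 to 1.22. IFI6 (ENSG00000126709) lies on chromosome 1, 27666064 to 27672212, minus strand. The nearest tested genes did not pass on either side, with log2 fold changes of -0.09 for ENSG00000235912, listed without a symbol, and -0.15 for FAM76A. The median over 1289 tested genes of chromosome 1 was -0.01.

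The IFIT genes encode tetratricopeptide repeat proteins that bind viral RNA, and they lie side by side on chromosome 10. IFIT1, which recognises RNA caps that lack methylation on the first ribose, rose. Its level was 1.89, 2.24 and 2.18 FPKM in mutant replicates 1 to 3, against 1.46, 1.26 and 1.18 FPKM in wild-type replicates 1 to 3. All mutant libraries lay above the wild-type libraries. IFIT1 was higher by a log2 fold change of 0.65 (SE 0.14, 95% interval 0.37 to 0.94), with an adjusted p of 4.87e-04 in edgeR's test. IFIT5, which binds RNA with a triphosphate end and has a broad basal expression, fell. It had 9.82, 8.55 and 9.12 FPKM in mutant replicates 1 to 3, against 13.3, 11.1 and 12.4 FPKM in wild-type replicates 1 to 3. All mutant libraries lay below the wild-type libraries. IFIT5 thus had a log2 fold change of -0.45 (SE 0.07, 95% interval -0.60 to -0.30), with an adjusted p of 3.29e-05 in the same test. Both calls were kept under every alternative that could be run for them, 16 for IFIT1 and 17 for IFIT5.

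IFIT2, which encodes another RNA-binding IFIT protein that forms complexes with IFIT1 and IFIT3, was detected at few counts. It had 16, 14 and 12 counts in mutant replicates 1 to 3, against 8, 5 and 4 counts in wild-type replicates 1 to 3. The mutant libraries were all above the wild-type libraries, at 0.17 to 0.19 FPKM against 0.05 to 0.10 FPKM. Its log2 fold change was 1.22 (SE 0.50, 95% interval 0.23 to 2.20), but the adjusted p of 0.0556 in edgeR's test, with a raw p of 0.0154, did not pass. In that fit, which includes the expressed genes, 27.3% of genes passed. The gene passed without wild-type replicate 1 (log2 fold change 1.53, adjusted p = 0.0320) and under 4 other alternatives, and the adjusted p ran from 0.0234 to 0.178 over all of them. IFIT3, the partner that stabilises IFIT1, lies between IFIT2 and IFIT1 and had 49 counts over the mutant libraries and 42 over the wild-type libraries (log2 fold change 0.14, SE 0.39, adjusted p = 0.827 in the same fit).

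The opposite changes of IFIT1 and IFIT5 took place on a chromosome whose genes were mostly lower in the mutant. Of 492 tested genes of chromosome 10, 44 were higher and 320 lower, with a median log2 fold change of -0.36. IFIT1 had 13 genes of that chromosome above it and 478 below it when they were ordered by log2 fold change. IFIT5 had 299 above it and 192 below it, close to the middle. The next tested gene after IFIT1 is IFIT5, followed by PANK1, a pantothenate kinase gene, at -0.20 (adjusted p = 0.0489), and KIF20B, a kinesin gene, at -0.37. On the other side LIPA, the lysosomal acid lipase gene, was at -0.14 (adjusted p = 0.00837) and ACTA2, the smooth muscle actin gene, at 0.52 (adjusted p = 3.26e-04), each in edgeR's test. Of the 10 tested genes around IFIT1, 8 were lower and 1, ACTA2, was higher. The part of the chromosome in the values of IFIT1 and IFIT5 was not tested.

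**Figure D2:**
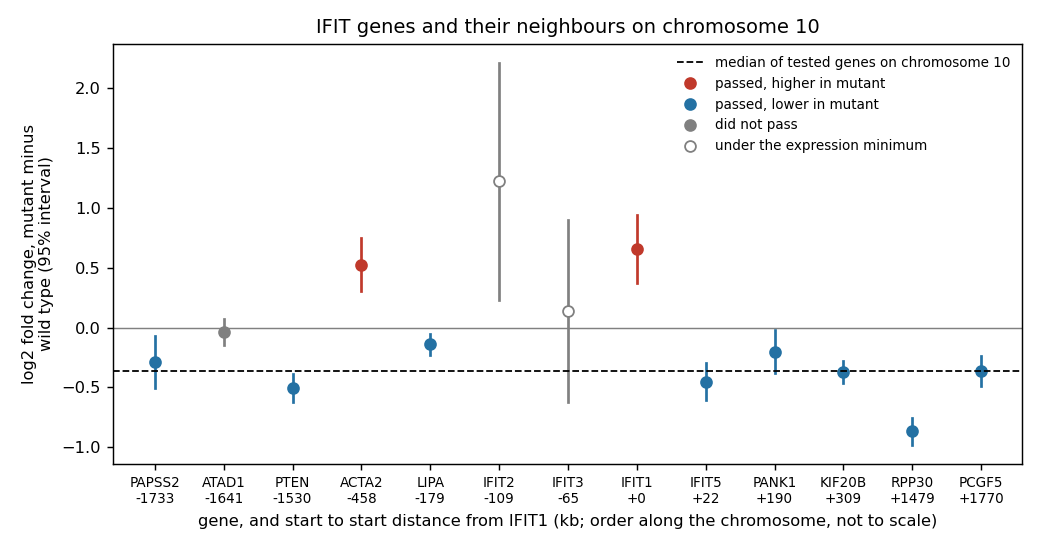
Log2 fold change (mutant minus wild type) with its 95% interval for the IFIT genes and the 5 tested genes on each side of IFIT1, in their order along chromosome 10. Open points are genes under the expression minimum, and the dashed line is the chromosome's median of -0.36. IFIT1 and ACTA2 lie above 0, while IFIT5 lies close to the dashed line.

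The ratio of the IFIT1 and IFIT5 levels per length within a library does not depend on scaling between libraries. It was taken because these genes had moved apart, and is given as a description. IFIT1 stood at 0.193, 0.262 and 0.239 of the IFIT5 FPKM in mutant replicates 1 to 3, against 0.110, 0.114 and 0.0950 in wild-type replicates 1 to 3. The 3 mutant ratios were all above the 3 wild-type ratios, and the mean log2 ratio differed by 1.11. The deposited gene model of LIPA, 89213569 to 89414557 on the opposite strand, spans IFIT1 and IFIT2, with 2602 to 3296 counts in mutant libraries and 2998 to 3195 counts in wild-type libraries. The labels do not state whether counting used strand, so the values of IFIT1 and IFIT2 are uncertain where exons of these models overlap.

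ISG15 encodes a ubiquitin-like protein that is attached to other proteins after interferon. ISG15 had 3.23, 3.70 and 2.45 FPKM in mutant replicates 1 to 3, from 57, 54 and 34 counts, against 2.51, 1.78 and 2.08 FPKM in wild-type replicates 1 to 3, from 39, 26 and 32 counts. Mutant replicate 3 fell just under wild-type replicate 1, and the other mutant libraries were above all wild-type libraries. The log2 fold change was 0.53 (SE 0.24, 95% interval 0.03 to 1.02) and did not pass (adjusted p = 0.0629 in edgeR's test). Without mutant replicate 3 the adjusted p was 0.0328 (log2 fold change 0.67), and without wild-type replicate 1 it was 0.0407 (0.67), while over all alternatives it ran from 0.0328 to 0.219. A gene on the opposite strand within the ISG15 model, ENSG00000224969, had 1 count in each mutant library and 4, 7 and 19 counts in wild-type replicates 1 to 3. The nearest tested genes, HES4, a HES family repressor gene, and AGRN, the agrin gene, were higher by 0.84 and 0.38. Of the 10 tested genes around ISG15, 2 were higher and 6 lower, beside 28.7% higher and 28.9% lower on chromosome 1.

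Among the enzymes that attach or remove ISG15, UBE2L6 and HERC6 rose and the others tested did not pass. UBE2L6, the ubiquitin-conjugating enzyme used by ISG15, had 8.27, 6.97 and 7.06 FPKM in mutant replicates 1 to 3, against 3.95, 3.42 and 3.28 FPKM in wild-type replicates 1 to 3. HERC6, a HERC family ligase that acts as the main ISG15 ligase in mice, averaged 2.34 ± 0.279 FPKM in the mutant and 1.00 ± 0.105 FPKM in the wild type (SD, n = 3 each). Log2 fold changes were 1.04 for UBE2L6 (SE 0.12, adjusted p = 9.46e-07 in edgeR's test) and 1.20 for HERC6 (SE 0.13, adjusted p = 5.44e-07). HERC5, the human ISG15 ligase, averaged 7.98 ± 0.0503 FPKM in the mutant and 8.71 ± 0.781 FPKM in the wild type and did not pass (adjusted p = 0.0683 in edgeR's test). The ISG15 protease gene USP18 had a log2 fold change of 0.06 (adjusted p = 0.571), and the ligase gene ARIH1 one of 0.11 (adjusted p = 0.0580). Thus 2 of 5 tested genes of this list were higher, 0 lower and 3 did not pass, so that 40.0% passed, beside 58.0% of all tested genes. UBA7, the activating enzyme, was under the minimum with 12 counts over the mutant libraries and 33 over the wild-type libraries, and was lower in the fit of all genes (adjusted p = 0.0340), although mutant and wild-type libraries overlapped.

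Of the factors that form or act beside ISGF3, STAT2 rose and IRF9 and IRF1 did not pass. STAT2, the subunit that carries the activation domain of ISGF3, had 4.5, 4.09 and 4.74 FPKM in mutant replicates 1 to 3, against 3.59, 3.50 and 3.20 FPKM in wild-type replicates 1 to 3. The groups did not overlap. STAT2 was higher by 0.34 on the log2 scale (SE 0.07, 95% interval 0.19 to 0.50), a 1.27-fold difference with an adjusted p of 6.44e-04 (edgeR), and the call was kept under 16 of 16 alternatives. The nearest tested gene on each side was also higher, PAN2, a deadenylase subunit gene, by 0.61 and TIMELESS, a replication fork gene, by 0.27. Of the 10 tested genes around STAT2, 6 were higher and 2 lower, beside 30.0% higher and 26.3% lower on chromosome 12. The median of the 653 tested genes of chromosome 12 was 0.01.

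IRF9, the DNA-binding subunit of ISGF3, was low. It had 41, 31 and 39 counts in mutant replicates 1 to 3, against 30, 56 and 41 counts in wild-type replicates 1 to 3. The wild-type libraries spanned a wider range and enclosed the mutant values. The log2 fold change was -0.28 (SE 0.24, 95% interval -0.76 to 0.19, adjusted p = 0.453 in edgeR's test on all genes with a count), so a fall to 0.590-fold and a rise to 1.14-fold both lie within the interval. A gene model without a symbol on the same strand, ENSG00000259529, overlaps IRF9 and had 6 to 22 counts in mutant libraries and 23 to 28 counts in wild-type libraries, and the labels do not state how shared reads were assigned.

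IRF1 had 130, 93 and 77 counts in mutant replicates 1 to 3, against 115, 83 and 106 counts in wild-type replicates 1 to 3. In FPKM these libraries overlapped almost fully, at 0.39 to 0.52 in the mutant and 0.40 to 0.52 in the wild type. The log2 fold change was -0.11 (SE 0.16, 95% interval -0.43 to 0.20, adjusted p = 0.643 in the same fit), which limits the difference to between 0.745-fold and 1.15-fold. The deposited IRF1 model is 12265 bases of exon over 132440440 to 132508719 of chromosome 5 and overlaps the antisense gene IRF1-AS1, so its FPKM depends on that length.

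IRF3, the factor that sensors activate, was well expressed and slightly higher in the mutant. It had 15.9, 16.5 and 15.8 FPKM in mutant replicates 1 to 3, against 13.4, 13.7 and 14.2 FPKM in wild-type replicates 1 to 3. The groups did not overlap, and the spread within each was small. IRF3 was higher by 0.19 on the log2 scale (SE 0.06, 95% interval 0.08 to 0.31), a 1.14-fold difference with an adjusted p of 0.00649 in edgeR's test. It did not pass in the fit of all genes with a count (log2 fold change 0.16, adjusted p = 0.0580). The nearest tested gene on each side moved the other way, with SCAF1, a splicing-related gene, at -0.47. BCL2L12, a BCL2-related gene whose model overlaps the start of IRF3 on the opposite strand, was at -0.33 (adjusted p = 9.28e-05 in edgeR's test). Of the 10 tested genes around IRF3, 3 were higher and 3 lower, beside 24.41% higher and 32.55% lower on chromosome 19.

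**Figure D3:**
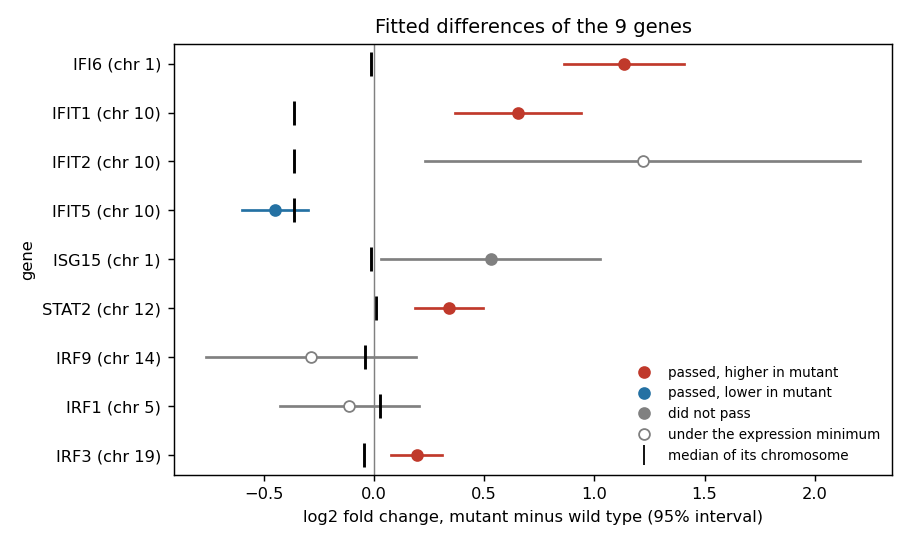
Log2 fold change (mutant minus wild type) of the 9 genes with 95% intervals, beside the median over the tested genes of each gene's chromosome (black ticks). Red points passed as higher, the blue point as lower, grey points did not pass, and open points are genes under the expression minimum. IFIT1 and IFIT2 lie above the median of chromosome 10 (-0.36), and IFIT5 at -0.45 lies near it.

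Interferon genes themselves had few or no counts. Of 12 ligand genes, 8 had 0 counts in all 6 libraries, among them IFNB1, IFNG and IFNA1, and a count of 0 allows up to 0.147 to 0.187 CPM (counts scaled to the library total) in mutant libraries and 0.167 to 0.178 in wild-type libraries (3 counts of each total, counting error only). IFNA2, IFNE, IFNK and IFNL1 had 1 to 3 counts in all. Of 11 receptor and JAK-STAT genes, 8 reached the expression minimum. IFNAR2, the other subunit of the type I receptor, averaged 0.350 FPKM in the mutant and 0.273 FPKM in the wild type, and IL10RB and JAK2 were also under it. Of the 8 tested, 2 were higher, 2 lower and 4 did not pass (4 of 8 passed, beside 58.0% of all tested genes), with a median log2 fold change of 0.02, beside -0.00071 over all tested genes. IFNGR2, a subunit of the interferon gamma receptor, was higher by 0.28 (adjusted p = 0.00120 in edgeR's test) and the kinase gene TYK2 by 0.17 (adjusted p = 0.00995). JAK1 changed by -0.21 (adjusted p = 0.00126) and the type I receptor gene IFNAR1 by -0.23 (adjusted p = 0.00277).

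Of 7 tested genes on the route from sensors to IRF3, 2 were higher, 2 lower and 3 did not pass. The share that passed, 57.1%, was near the 58.0% of all tested genes. MAVS, the mitochondrial adaptor of the RNA sensors, had 6.36, 6.07 and 6.55 FPKM in mutant replicates 1 to 3, against 10.8, 9.01 and 9.39 FPKM in wild-type replicates 1 to 3, without overlap. Its log2 fold change was -0.65 (SE 0.06, adjusted p = 5.60e-08 in edgeR's test). MAVS lies on chromosome 20, where 144 of 329 tested genes were lower and 77 higher, with a median of -0.13. TBK1, the kinase that phosphorylates IRF3, changed by -0.21 (adjusted p = 0.00701 in edgeR's test). TRAF3, an adaptor between MAVS and TBK1, rose by 0.23 (adjusted p = 0.00297), and NLRX1, a mitochondrial NLR protein, by 0.36 (adjusted p = 0.00171). Among genes under the minimum, the RNA sensor gene DDX58 had 12 counts over the mutant libraries and 16 over the wild-type libraries, CGAS had 5 over the mutant and 1 over the wild-type libraries, and STING1 had 7 over the mutant and 5 over the wild-type libraries. IFIH1 and ZBP1 had 0 counts in all 6. TLR3, the endosomal RNA receptor, had 21, 16 and 18 counts in mutant replicates 1 to 3, against 6, 4 and 10 counts in wild-type replicates 1 to 3, and passed in the fit of all genes (log2 fold change 1.38, adjusted p = 0.00931 in edgeR's test). IKBKE, a TBK1-related kinase gene, was lower there, with 11 counts over the mutant libraries and 42 over the wild-type libraries (adjusted p = 0.00172).

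Of 47 listed antiviral interferon-stimulated genes, 17 were tested, of which 6 were higher, 3 lower and 8 did not pass, with a median log2 fold change of 0.06. The share higher was 35.3%, beside 29.4% of all tested genes, and the share that passed was 52.9%, beside 58.0%. SAMD9, a poxvirus restriction factor gene, had 2.32, 2.06 and 2.37 FPKM in mutant replicates 1 to 3, against 0.87, 0.76 and 1.05 FPKM in wild-type replicates 1 to 3 (log2 fold change 1.30). It reached the minimum only through the mutant, where it was high. The minimum thus fixed the direction of its difference, though not its size, and its p is not given. Without it 5 of 16 genes were higher. LGALS3BP, a secreted galectin-binding glycoprotein gene, averaged 4.03 ± 0.334 FPKM in the mutant and 1.48 ± 0.344 FPKM in the wild type (SD, n = 3 each; log2 fold change 1.41, adjusted p = 2.66e-07 in edgeR's test). TRIM5, a retroviral capsid sensor gene, was higher by 0.59 (adjusted p = 3.83e-05), and ZC3HAV1, which encodes the zinc-finger antiviral protein, changed by -0.23 (adjusted p = 7.41e-04). ADAR, the RNA-editing enzyme gene, was the most abundant of the list and did not pass, at 35.9 ± 0.298 FPKM in the mutant and 34.9 ± 0.637 FPKM in the wild type (SD, n = 3 each).

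Of the antiviral list, MX1, OAS2, XAF1, RTP4 and TREX1 had 0 counts in all 6 libraries. MX2 and RSAD2 had 0 counts over the mutant libraries and 1 over the wild-type libraries, and OAS1 had 2 over the mutant libraries and 0 over the wild-type libraries. Of the 25 genes of this list under the minimum that had a count, 4 were higher and 1 was lower in the fit of all genes, in which 14.0% of genes were higher and 13.3% lower. IFI44L had 35, 30 and 19 counts in mutant replicates 1 to 3, against 2, 5 and 2 counts in wild-type replicates 1 to 3 (log2 fold change 3.13, SE 0.48, adjusted p = 8.74e-10 in edgeR's test). OASL, an OAS-like protein gene, had 28 counts over the mutant libraries and 3 over the wild-type libraries, a ratio of 9.22 after scaling to library totals with an exact 95% counting interval of 2.85 to 47.4. SAMD9L had 12 counts over the mutant libraries and 0 over the wild-type libraries, 3.95-fold above a floor of 3 counts over the group. That fold takes the mutant counts as exact and is not a lower bound. SAMD9L entered the fit through the mutant alone, which fixed the direction of its difference. EPSTI1 had 38 counts over the mutant libraries and 11 over the wild-type libraries. IFI35 was lower, with 17, 17 and 20 counts in mutant replicates 1 to 3, against 45, 30 and 37 counts in wild-type replicates 1 to 3 (log2 fold change -1.13, adjusted p = 6.90e-04 in edgeR's test). These genes under the minimum were named because they passed, after their values were seen.

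Among targets of IRF1 and interferon gamma, 2 of 7 tested genes were higher, 1 was lower and 4 did not pass (42.9% passed, beside 58.0% of all tested genes), with a median of -0.01. TAPBP, the tapasin gene of peptide loading, was higher by 0.52 (adjusted p = 0.00118 in edgeR's test) and the peptide transporter gene TAP1 by 0.36 (adjusted p = 0.0145). LAP3, an aminopeptidase gene, changed by -0.35 (adjusted p = 2.45e-06), and WARS1 did not pass (-0.05, adjusted p = 0.322). Of 10 genes under the minimum with a count, 3 were higher in the fit of all genes and 0 lower. In that fit 14.0% of all genes were higher and 13.3% lower. Those shares include the expressed genes, which passed more often, and no share was counted over genes under the minimum alone. The 3 genes are named because they passed. GBP1, a guanylate-binding protein gene, had 16, 7 and 8 counts in mutant replicates 1 to 3 and 0 counts in each wild-type library. Its mutant counts were 10.2-fold above a floor of 3 counts over the group, which takes them as exact and is not a lower bound. GBP1 entered the fit through the mutant alone, which fixed the direction of its difference. NLRC5, the transactivator of MHC class I genes, had 94, 75 and 76 counts in mutant replicates 1 to 3, against 29, 30 and 47 counts in wild-type replicates 1 to 3 (log2 fold change 1.12, adjusted p = 8.54e-07 in edgeR's test). NLRC5 lies on chromosome 16, where 362 of 578 tested genes were higher and 33 lower. PSMB9, an immunoproteasome subunit gene, had 77 counts over the mutant libraries and 25 over the wild-type libraries. CXCL9, CXCL10 and IDO1 had 0 counts.

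The other IRF genes gave no common direction. IRF7, the interferon-inducible factor that amplifies type I interferon, had 5, 4 and 5 counts in mutant replicates 1 to 3, against 31, 23 and 17 counts in wild-type replicates 1 to 3, without overlap. Its log2 fold change of -2.43 (SE 0.45) passed in the fit of all genes (adjusted p = 6.66e-07 in edgeR's test). Of 3 tested genes of this list, IRF2BP2, a co-repressor gene, was lower (-0.27, adjusted p = 9.96e-05 in edgeR's test), and IRF2BPL (-0.19, adjusted p = 0.0946) and IRF2BP1 (-0.10, adjusted p = 0.183) did not pass. Thus 33.3% of the 3 passed, beside 58.0% of all tested genes. Of 5 tested negative regulators, 1 was higher and 1 lower (40.0% passed, beside 58.0% of all tested genes). PTPN11, the phosphatase SHP2, was higher by 0.31 (adjusted p = 5.46e-06 in edgeR's test) and PIAS4, a SUMO ligase gene, changed by -0.20 (adjusted p = 0.0150). PTPN2, a phosphatase gene, did not pass (-0.13).

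Over the 7 lists with tested genes, which share some genes, 51 distinct genes were tested, of which 15 were higher, 10 lower and 26 did not pass. That is 29.4% higher and 49.0% passing, beside 29.4% and 58.0% of all tested genes. Without SAMD9 and TICAM1, which reached the minimum through 1 group alone, 14 of 49 were higher and 10 lower. The median log2 fold change was 0.01, beside -0.00071 over all tested genes. Of 58 distinct listed genes under the minimum with a count, 9 were higher and 4 lower in the fit of all genes. Of the 9, SAMD9L and GBP1 had counts in the mutant alone, so their direction was fixed. In that fit 14.0% of all genes were higher and 13.3% lower. The expressed genes, which passed more often, are part of those shares, and genes under the minimum were not counted apart. The tested genes whose log2 CPM followed the mean of IFI6, IFIT1, IFIT2 and ISG15 most closely over the 6 libraries were DHODH on chromosome 16 (Pearson r = 0.9998), C17orf113 on chromosome 17 (0.9995) and MMP17 on chromosome 12 (0.9993). The 4 genes are the effectors with a positive log2 fold change, without IFIT5, and 2 of them did not pass. These correlations therefore restate the difference between the groups as a description of 6 libraries, and 1221 of 12547 tested genes had r above 0.95.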

How the data were processed

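Poly(A) RNA of 3 mutant and 3 wild-type libraries of HEK293 cells was sequenced as paired ends, per the labels' protocols. The authors deposited 1 table of raw counts and FPKM per gene; per the submitters' processing notes they used cutadapt, HISAT2 2.0.1 and HTSeq on GRCh38. For the annotation release and strand setting: not given in the sources used here. Deposited FPKM matched counts divided by exon length and library total within 0.011 for 100% of values.

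The 12550 genes averaging 1 FPKM or more were normalized with TMM factors (0.980 to 1.017) and tested with edgeR 4.0.16 (quasi-likelihood, two-sided, genotype as the factor, common biological coefficient of variation 0.0478), with Benjamini-Hochberg adjustment over all genes. Members and listed genes under that minimum were read from the same test on all 32852 genes with a count. SE and 95% intervals come from the test statistic and are not adjusted. The test was tried on simulated data. Alternatives were other scalings and expression minimums, DESeq2 1.42.0, limma 3.58.1 on log2(FPKM + 1), 0.1 or 0.5, a replicate block, and leaving out 1 library at a time. The members, the gene lists and the alternatives were chosen with earlier results of these data known. In each list the 4 tested genes with the smallest adjusted p were named, with the nearest tested neighbours of called members. Promoter letters were counted in RefSeq promoters. Results for some listed genes are not reported here.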

Additional observations from a re-analysis of the deposited data

How the results depend on the processing

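The calls of IFI6, IFIT1, IFIT5 and STAT2 were kept under every alternative that could be run for them, and IRF1 and IRF9 passed under none. IFIT2 passed with library totals as the scaling (log2 fold change 1.29), with edgeR's filterByExpr (1.22) and with limma on log2(FPKM + 1) (0.14) or log2(FPKM + 0.5) (0.25), and ranged from 1.02 to 1.53 with a library left out. ISG15 passed with library totals (0.57) and with limma at pseudocounts of 1 (0.40), 0.1 (0.53) and 0.5 (0.46), and ranged from 0.40 to 0.67 with a library left out. IRF3 did not pass without an expression minimum (0.16), where the scaling moved the expressed genes by a median of -0.04. With a minimum of 5 FPKM, which leaves fewer genes to test, 4597 genes passed (2300 higher, 2297 lower) against 7284 (3686 and 3598), and IFIT1, ISG15 and STAT2 were below the minimum. The share of calls that were higher, 50.6%, ranged from 49.6% to 56.9%, the last with library totals as the scaling (55.7% with limma on log2(FPKM + 1)). Of 238 counts of list members over the alternatives, 34 moved by more than 1.5 times. Antiviral genes ranged from 2 to 9 higher and 1 to 5 lower (6 and 3 reported), ISG15 enzymes from 1 to 3 and 0 to 2 (2 and 0), receptors and JAK-STAT from 1 to 2 and 2 (2 and 2), other IRF genes from 0 to 1 and 1 to 3 (0 and 1), sensors from 1 to 3 and 1 to 3 (2 and 2), negative regulators 1 and from 0 to 1 (1 and 1), and gamma interferon targets from 0 to 5 and 1 (2 and 1). Same-numbered libraries shared no deviation (r of -0.044 to 0.0038), and a replicate block gave 7069 calls (3584 higher, 3485 lower) and changed no member's call. Counts under about 60 a library limit IFIT2, IRF9 and ISG15.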
